A study of Rattus norvegicus with 20 samples.

Results

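Whole blood of rats with reflux esophagitis that had received STW5 at 2 ml/kg was compared with whole blood of sham-operated rats, using the 4 arrays titled with that dose and the 4 titled sham, 8 of the 20 arrays of the study. All animals were Wistar rats, and each array held the blood of 1 of 4 animals per group. In the STW5 group, reflux esophagitis had been induced by surgery, and STW5 dosing began 7 days ahead of it and went on for 10 days afterwards. The sham group had the operation without the induction of reflux and no drug is described for it. No age or sex was given for either group. Because the comparison contains the induced disease and the drug together, the data of 3 further groups are set beside it where they bear on it. These were esophagitis with STW5 at 0.5 ml/kg, esophagitis without treatment, and esophagitis with omeprazole, a proton pump inhibitor, at 30 mg/kg, with 4 arrays each. The arrays were chosen by their titles, and no measured value entered that choice.

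STW5 is a liquid that combines extracts of several medicinal plants and is used for functional disorders of the stomach and gut. Reflux esophagitis is an inflammation of the esophageal lining caused by the backflow of stomach contents. RNA of whole blood comes from neutrophils, monocytes, lymphocytes and platelets, and to a large part from reticulocytes, the youngest red cells, which still hold globin and heme synthesis transcripts. A transcript of 1 cell type can therefore differ between blood samples either because there are fewer or more of those cells or because each cell holds less or more of it, and in these bulk samples the 2 cannot be told apart.

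Each value rests on the hybridisation of labelled RNA to 60-base probes. The probes of the gene with the smallest p value in each direction are shown because they carry the leading differences, and both probes of Derl3, an endoplasmic reticulum protein of the plasma cell list, because their changes had opposite signs. The sequences are those of the scanner files, with positions in rat build rn4 (Shoc2 chr1:260255479-260255538 on the plus strand, Hdac6 chrX:26605809-26605986 on the plus strand, Derl3 chr20:13163303-13163362 and chr20:13165457-13165598 on the minus strand). The Hdac6 probe and the second of the Derl3 probes span 178 and 142 bases of the genome, more than their own length of 60. No gene annotation of that build was used here, so exons and untranslated regions are not assigned.
Shoc2: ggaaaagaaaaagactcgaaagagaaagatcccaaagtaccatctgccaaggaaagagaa
Hdac6: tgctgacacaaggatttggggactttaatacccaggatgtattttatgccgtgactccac
Derl3, brighter probe: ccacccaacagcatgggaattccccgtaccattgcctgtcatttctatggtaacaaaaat
Derl3, dimmer probe: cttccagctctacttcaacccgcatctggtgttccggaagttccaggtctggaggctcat

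The 75th percentile of the processed intensity, by which each array was scaled, was 71.3 to 163 on the STW5 2 ml/kg arrays and 97.8 to 173 on the sham arrays, and the share of probes well above background was 44.2% to 52.9% on the STW5 arrays and 45.6% to 50.3% on the sham arrays. A difference between the groups was detected in neither measure (two-sided exact permutation p = 0.486 for the log2 percentile and p = 1 for the share, with 0.0286 the smallest p that 4 against 4 arrays allow). Markers of blood cells were detected: 45 of 47 erythroid genes on the array, 26 of 31 neutrophil genes and 24 of 27 T cell genes were well above background on all 8 arrays. Of 24 genes of epithelial and vascular wall cells, 12 were above background on none of the 8 and 9 on all 8, among them the keratins Krt14 and Krt4, the collagens Col1a1 and Col1a2 and the smooth muscle actin Acta2. Slide 1 held the untreated and sham arrays, slide 2 both STW5 doses and slide 3 the omeprazole arrays. Each slide was scanned as a set. The STW5 and sham groups thus differ in slide as well as in treatment, and these data do not separate the 2. Omeprazole arrays shared a slide with no other group, so the same limit holds wherever they are set beside another group. The dose labels conflict: the array titles and the numbering of groups in the study's design text give the 2 STW5 doses in opposite order, and the authors' deposited value table holds, in each of its 8 STW5 columns, the values of the same-numbered array of the other dose. The titles of the scanner files were followed. Pearson correlations over genes (not independent replicates) were 0.940 to 0.977 among the STW5 2 ml/kg arrays and 0.975 to 0.986 among the sham arrays. Array 1 of the untreated group correlated with sham array 3 at 0.992, more closely than any pair of sham arrays did. Untreated array 2 had the collagen Col1a2 at 5.63 and the keratin Krt18 at 4.25. The other untreated arrays had -1.84 to 0.56 and -3.26 to 0.02. This group enters the estimate of the spread, and both arrays enter the untreated means given below.

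No gene passed the threshold between STW5 2 ml/kg and sham (limma, adjusted p below 0.05, 0 of 15231 genes, 0%). The smallest adjusted p was 0.0920, for Shoc2. At an unadjusted p below 0.05 there were 1885 genes (12.4%), 1160 of them higher and 725 lower in STW5 blood. The 4 STW5 arrays all lay above the 4 sham arrays for 667 genes (4.38%) and all lay below them for 495 (3.25%). The median log2 change of all genes was 0.04, with the middle 50% of genes between -0.27 and 0.38, and a change of more than 1 in either direction was measured for 786 genes (5.16%). The median standard error of a change was 0.35. For 6170 genes (40.5%) the 95% confidence interval stayed within a 2-fold difference either way, and for the others a larger difference was not bounded. Each standard error rests on a spread estimated over all 5 groups, not over the 2 compared alone. The median within-group SD of a gene was 0.50 in the STW5 group, above the 0.30 of the sham group, and 0.65 in the untreated group. Scaled on the E1A spike-in probes instead, the median of all genes moved to -0.41, and a list median called relative below is therefore its difference from the median of all genes in the same comparison.

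The count of genes that passed differed between settings. With the array's own signal as a covariate 125 genes passed, without untreated arrays 1 and 2 there were 51, and with weights that lower the influence of outlying arrays 670. Each of the other settings tried gave 0, with the exception of leaving out STW5 array 1, which gave 2. None of these genes is described as changed here. Because no gene passed, the genes named are the 5 of smallest p on either side and the 2 of smallest p in each gene list, and any other gene named was chosen after its values had been seen. Levels are log2 values relative to the array's 75th percentile, and every change is the mean of the STW5 arrays minus the mean of the sham arrays.

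Shoc2 encodes a leucine-rich repeat scaffold of the Ras to ERK signalling cascade. Its level was 1.86, 1.88, 1.54 and 1.83 on the STW5 arrays, against 0.26, 0.22, 0.63 and 0.48 on the sham arrays. The groups were separated by more than the whole range of either, and the change was 1.38 ± 0.22 (SE, n = 4 each, limma adjusted p = 0.0920). Rlf, a zinc finger gene, had levels of -1.45, -0.64, -1.10 and -1.54 in STW5 blood, against -3.20, -2.87, -2.50 and -2.15 in sham blood, and the 95% interval of its change was 0.85 to 2.15. Dusp16, a phosphatase that acts on the stress kinases JNK and p38, had levels of -1.13, -0.39, -0.30 and -0.05 in STW5 blood, against -2.20, -1.96, -1.68 and -1.61 in sham blood, a change of 1.40 ± 0.29. In both genes the lowest STW5 array stood clear of the highest sham array. Clec2g, a C-type lectin of the natural killer gene complex, averaged -2.14 ± 0.17 in STW5 blood and -3.29 ± 0.33 in sham blood (SD, n = 4 each), but was well above background on 3 STW5 arrays and 1 sham array only. Brinp2, a gene best known from neurons, was well above background on all 4 STW5 arrays and on no sham array, and was at least 2.55-fold higher in STW5 blood. These last 4 genes had the same limma adjusted p of 0.146.

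On the lower side, Hdac6, a cytoplasmic deacetylase of tubulin, had levels of -4.13, -3.61, -4.15 and -3.73 in STW5 blood, against -2.53, -2.60, -2.95 and -2.57 in sham blood. It was not well above background on any STW5 array and on 2 sham arrays it was, so it was at least 2.08-fold lower in STW5 blood. Agap3, a GTPase-activating protein of the Arf family, had levels of -2.89, -4.03, -3.86 and -4.15 in STW5 blood, against -2.09, -2.06, -2.14 and -2.40 in sham blood. It was not well above background on any STW5 array and was at least 2.56-fold lower in STW5 blood. STW5 array 1 was its highest array in that group, and without that array its change was -1.84 with an adjusted p of 0.034. Fam118b was likewise not above background in STW5 blood and was at least 1.97-fold lower there. Timmdc1, an assembly factor of respiratory complex I, averaged -3.24 ± 0.16 in STW5 blood and -2.09 ± 0.37 in sham blood, and Srbd1, a gene with an RNA-binding domain, averaged -1.49 ± 0.32 in STW5 blood and -0.56 ± 0.11 in sham blood (SD, n = 4 each). All 5 had a limma adjusted p of 0.146, and in each the groups did not overlap. The 10 leading genes other than Brinp2 passed in each of the 3 settings that gave 51 or more calls.

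**Figure D1:**
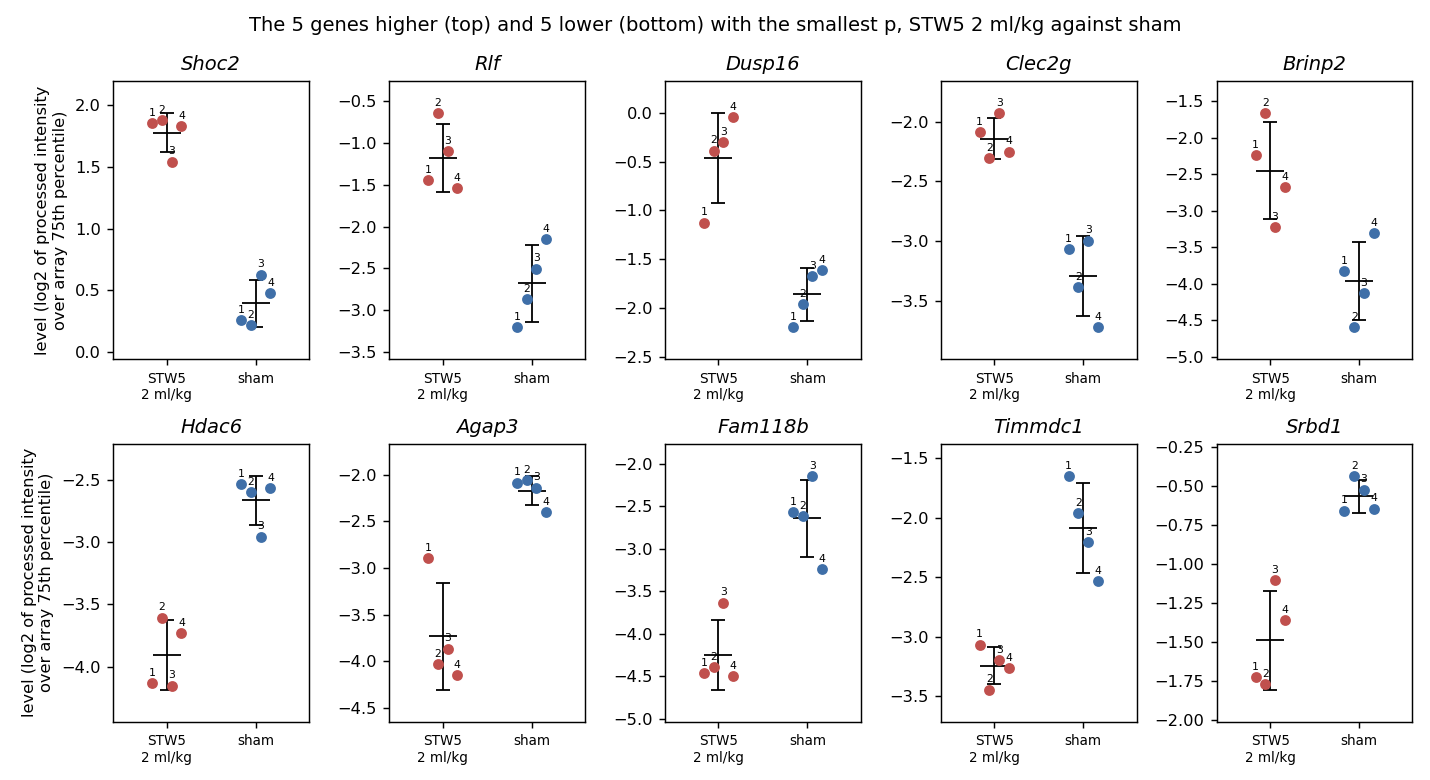
Levels of the 10 genes with the smallest p on each array, as log2 of the processed intensity over the array's 75th percentile. The upper row holds the 5 genes higher and the lower row the 5 genes lower in STW5 blood, points are arrays with their replicate number, bars are mean and SD, and in each panel the 4 STW5 2 ml/kg arrays on the left do not overlap the 4 sham arrays on the right.

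Among neutrophil genes, several receptors of the mature cell lay higher in STW5 blood. Of 28 tested members 20 lay above the median of all genes and 8 below it, and none passed. In 6 members (21.4%, against 4.38% of all genes) every STW5 array was above every sham array and in 1 (3.57%, against 3.25%) below. The median of the list was 0.59 above that of all genes. Cxcr2, the receptor by which neutrophils follow chemokines, had levels of 2.99, 2.84, 2.89 and 1.56 in STW5 blood, against 0.55, 1.21, 0.98 and 1.30 in sham blood. STW5 array 4 was far below the other STW5 arrays and close to sham, and the change was 1.56 ± 0.45 (SE, limma adjusted p = 0.192). Other members above sham on all arrays included Itgam, an integrin chain, Ncf1, a subunit of the phagocyte oxidase, Il1r2, the decoy receptor of interleukin 1, and Csf2rb, a cytokine receptor chain. Their changes were 0.75 for Itgam, 0.39 for Ncf1 and 1.32 for Il1r2, and Csf2rb was not above background on any sham array and at least 1.47-fold higher in STW5 blood. The member below sham on all arrays was Fcgr3a, an Fc receptor also found on natural killer cells, at -1.34.

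The score of an array for a list is the mean over members of the level minus the member's mean over 20 arrays. For mature neutrophils the scores were 0.14, 0.19, -0.13 and -1.09 on the STW5 arrays, against -1.06, -0.43, -0.70 and -0.54 on the sham arrays. STW5 array 4 was as low as the lowest sham array, so the groups overlapped. Without STW5 array 4 the list median relative to all genes was 0.86 and without STW5 array 2 it was 0.42, with normexp background correction it was 0.29, with array weights 0.20. Genes of neutrophil granules and precursors were close to all genes, with 10 of 16 above the median of all genes and a relative median of 0.11. Of the 16 members 1 was above sham on all arrays, against 4.38% of all genes. Pglyrp1, a granule peptidoglycan-binding protein, averaged 3.07 ± 0.76 in STW5 blood and 2.14 ± 0.45 in sham blood (SD, n = 4 each, limma adjusted p = 0.446). Cd63, a granule membrane tetraspanin, was the member above sham on all arrays, at 0.90 ± 0.54.

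Monocyte genes were divided, with 13 of 24 above and 11 below the median of all genes and a relative median of 0.09, which was -0.20 with array weights. Cx3cr1, the fractalkine receptor of patrolling monocytes, had levels of 1.49, 1.90, 3.62 and 3.26 in STW5 blood, against 1.18, 1.35, 1.29 and 1.64 in sham blood. Arrays 3 and 4 of the STW5 group were high, while arrays 1 and 2 lay at or near the sham range, and the change of 1.20 ± 0.52 had a limma adjusted p of 0.35. Its probe shares sequence with a brighter probe of another gene. Vcan, a matrix proteoglycan of classical monocytes, averaged -0.73 ± 0.78 in STW5 blood and -1.81 ± 0.36 in sham blood. Adgre1, a macrophage receptor, was the one member below sham on all arrays, at -0.42, against 3.25% of all genes. For eosinophils, basophils and mast cells 8 of 13 members lay above the median of all genes, none apart from sham, and Ccr3, the eotaxin receptor, averaged -3.04 ± 0.60 in STW5 blood and -3.68 ± 0.68 in sham blood.

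Lymphocyte genes lay lower in STW5 blood. Of 24 T cell genes 19 lay below the median of all genes and 5 above it, and in 4 (16.7%, against 3.25% of all genes) every STW5 array was below every sham array. Cd4, the coreceptor of helper T cells, which rat monocytes also carry, had levels of -1.69, -2.03, -2.22 and -1.86 in STW5 blood, against -0.75, -0.83, -0.76 and -1.03 in sham blood. The groups were well apart, with a change of -1.11 ± 0.32 (SE, limma adjusted p = 0.195). Ccr7, the homing receptor of naive T cells and migrating dendritic cells, had levels of -1.06, -1.40, -0.88 and -0.78 in STW5 blood, against -0.25, 1.05, 0.36 and -0.11 in sham blood, a change of -1.29 ± 0.49 (limma adjusted p = 0.302). Cd8a, the coreceptor of cytotoxic T cells, and Lck, the kinase bound to both coreceptors, were the other members apart, at -1.04 and -1.03. The chains of the T cell receptor complex were not apart: Cd3e had a change of -0.17 ± 0.55 and Cd3d of -0.26 ± 0.40.

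Of 22 B cell genes 20 lay below the median of all genes and 2 above it, and 3 (13.6%, against 3.25%) were below sham on all arrays. Cd72, a regulator of the B cell receptor, had levels of -4.29, -4.21, -2.94 and -2.75 in STW5 blood, against -1.59, -2.01, -1.59 and -1.48 in sham blood, a change of -1.88 ± 0.58 (SE, limma adjusted p = 0.22). Cd22, an inhibitory coreceptor, had levels of -3.92, -4.06, -2.38 and -2.50 in STW5 blood, against -2.34 to -1.68 in sham blood, a change of -1.22 ± 0.47. In both genes STW5 arrays 1 and 2 were far lower than arrays 3 and 4, and on 2 of the STW5 arrays they were not above background. Blk, a kinase of B cell receptor signalling, was the other member apart, at -1.43. The B cell scores showed the same division, at -0.79, -0.37, 0.41 and 0.35 on the STW5 arrays, against 0.53, 0.20, 0.63 and 0.54 on the sham arrays. The T cell scores were -0.65, -0.31, 0.33 and 0.60 on the STW5 arrays, against 0.08, 0.66, 0.35 and 0.26 on the sham arrays, so arrays 1 and 2 of the STW5 group lay below sham and arrays 3 and 4 within it. The size of both list medians depended on single STW5 arrays. Relative to all genes, the T cell median was -0.34 over all arrays, -0.04 without STW5 array 1 and -0.63 without STW5 array 4. The B cell median was -0.66 over all arrays, -0.34 without STW5 array 1 and -0.86 without STW5 array 3. The T cell median was 0.07 with array weights and 0.13 with the neutrophil score as a covariate, so its sign turned, while the B cell median stayed negative at -0.41 and -0.20.

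Natural killer and cytotoxic genes were the exception among lymphocyte lists, with 17 of 22 above the median of all genes and a relative median of 0.25, though no member was apart from sham in either direction. Tbx21, the transcription factor T-bet, had levels of 8.19, 8.89, 7.41 and 8.09 in STW5 blood, against 7.49, 6.99, 7.53 and 7.51 in sham blood. Ccl5, a chemokine of cytotoxic cells, had levels of 6.65, 5.92, 6.22 and 5.65 in STW5 blood, against 6.72, 4.56, 4.68 and 4.55 in sham blood. Sham array 1 held the highest Ccl5 level of all 8 arrays, and its score for the list was 1.17 against -0.69 to -0.20 on the other sham arrays. Without it the relative median of the list was 0.54, and without sham array 4 it was 0.01. For dendritic cells and MHC class II 13 of 18 members lay below the median of all genes. Of these lists' members, Ccr7 was the 1 below sham on all arrays here, against 3.25% of all genes, and it was already counted among the T cell genes. Batf3, a dendritic cell transcription factor, was not above background on any STW5 array and was at least 1.21-fold lower in STW5 blood. Of 11 plasma cell genes 7 lay below the median of all genes, and 2 (18.2%, against 4.38%) were above and 1 (9.09%, against 3.25%) below sham on all arrays. Prdm1, the plasma cell regulator Blimp-1, averaged -4.07 ± 0.42 in STW5 blood and -4.81 ± 0.19 in sham blood, but was above background on 1 STW5 array and on no sham array, and Mzb1, a chaperone of antibody secretion, was the member below, at -0.33. The brighter Derl3 probe was above sham on all arrays at 0.44, a value of -0.0073 under spike-in scaling, and the dimmer probe was at -1.31.

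Erythroid genes lay lower in STW5 blood on average but split the group. Of 46 members 39 lay below the median of all genes and 7 above it, with a relative median of -0.42, and 1 (2.17%, against 3.25%) was below sham on all arrays. The scores were 1.09, 0.91, -0.69 and -0.72 on the STW5 arrays, against 0.45, 0.20, 0.43 and 0.97 on the sham arrays. STW5 arrays 1 and 2 were thus near the highest sham value and arrays 3 and 4 below every sham array. Arrays 1 and 2 were also those with the lowest 75th percentile, 77.7 and 71.3, against 163 and 105 for arrays 3 and 4, and its part in the split was not tested. Car1, a carbonic anhydrase of red cells, had levels of 4.64, 4.33, 2.88 and 2.25 in STW5 blood, against a mean of 5.14 ± 0.73 in sham blood (SD, n = 4), a change of -1.62 ± 0.69 (SE, limma adjusted p = 0.344). Fech, the enzyme that inserts iron into heme, was the member apart, with levels of 7.25, 7.04, 5.63 and 5.56 in STW5 blood, against 7.70, 7.25, 7.32 and 7.65 in sham blood. Tal1, an erythroid transcription factor, was higher in STW5 blood by 1.07 ± 0.47 on its brightest probe and by 0.13 on its other probe. Without STW5 array 1 the relative list median was -0.80 and without STW5 array 4 it was -0.11. With the array's own signal as a covariate it was -0.81, and with array weights -0.98.

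Platelet genes lay higher in STW5 blood, with 22 of 27 above the median of all genes, a relative median of 0.54, and 2 (7.41%, against 4.38%) above sham on all arrays. F5, coagulation factor V, had levels of 3.29, 2.02, 2.12 and 2.68 in STW5 blood, against 1.08, 1.21, 1.36 and 1.84 in sham blood, a change of 1.16 ± 0.38 (SE, limma adjusted p = 0.248). Vwf, the von Willebrand factor of platelets and endothelium, had levels of 5.55, 5.13, 4.35 and 5.35 in STW5 blood, against 3.75, 3.52, 4.15 and 4.63 in sham blood. Only STW5 array 3 overlapped sham for Vwf, its 3 probes gave changes of 1.08, 1.11 and 1.21, and the limma adjusted p was 0.234. Selp, the platelet selectin, was the other member apart, at 0.61 ± 0.76. The scores were 1.14, 0.08, -0.54 and 0.34 on the STW5 arrays, against -0.29, -0.53, -0.26 and 0.11 on the sham arrays, so STW5 array 1 was highest and array 3 lowest of all 8. Without STW5 array 1 the relative median of the list was 0.16, and without STW5 array 3 it was 0.86. Of the 11 tested genes of epithelial and vascular wall cells 10 lay above the median of all genes, with Kdr, an endothelial receptor of vascular growth factor, at -0.86, -1.36, -0.86 and 1.01 in STW5 blood, against -1.75, -1.44, -2.09 and -1.42 in sham blood, where STW5 array 4 stood high.

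**Figure D2:**
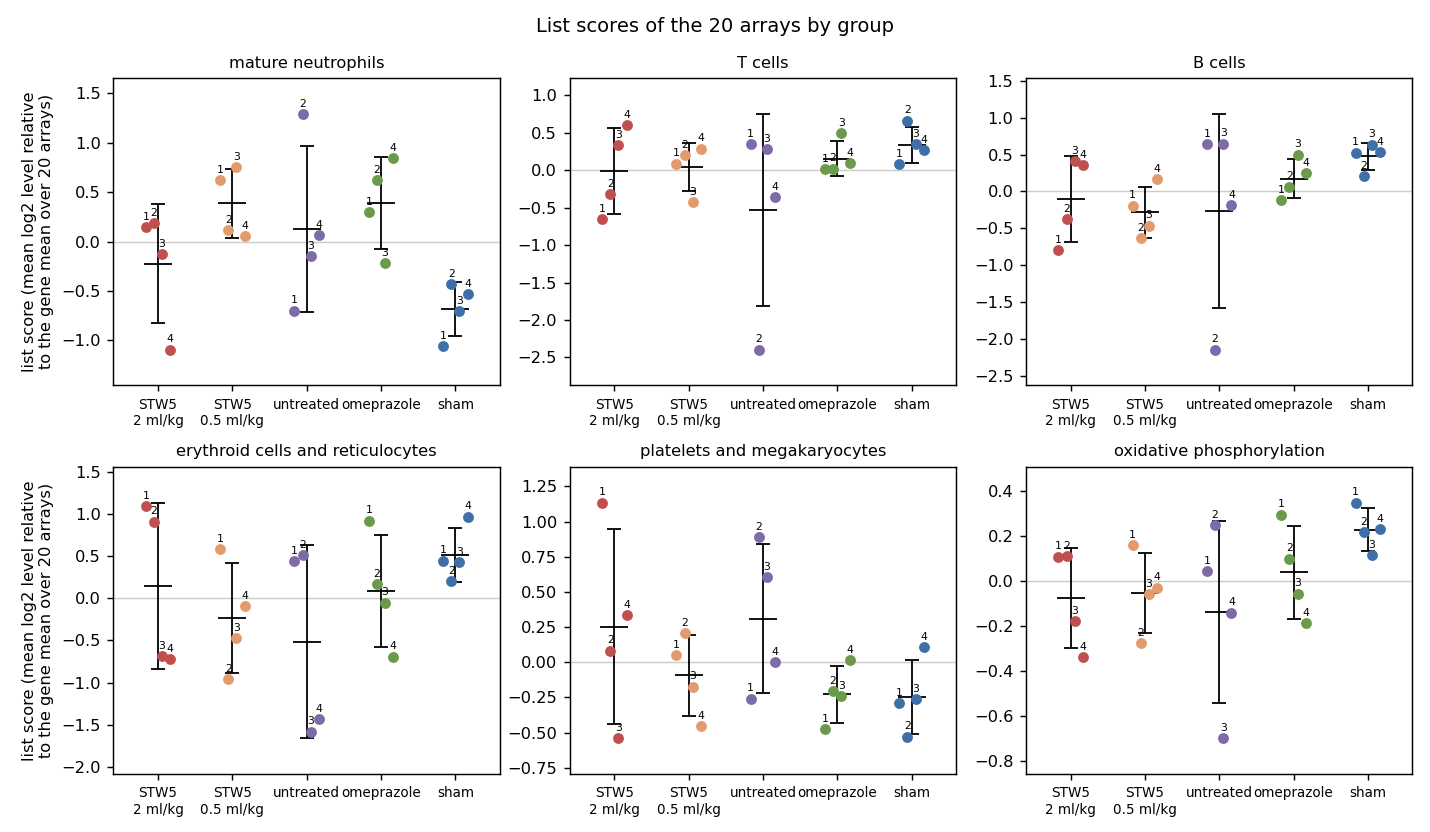
List scores of the 20 arrays for 6 lists, each score the mean over list members of log2 level minus the member's mean over 20 arrays. Points are arrays with their replicate number, bars are mean and SD, and arrays 1 and 2 of the STW5 2 ml/kg group differ from arrays 3 and 4 in the T cell, B cell and erythroid panels, with erythroid scores of 1.09 and 0.91 against -0.69 and -0.72.

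Cytokine, feedback and immediate early genes held some of the clearest separations. Socs3, the feedback inhibitor induced by interleukin 6 signalling, had levels of 0.06, -0.43, -0.17 and -0.53 in STW5 blood, against -1.89, -1.49, -1.30 and -1.14 in sham blood. All STW5 arrays were above all sham arrays, with a change of 1.18 ± 0.32 (SE, limma adjusted p = 0.169). Il1b, the cytokine interleukin 1 beta, had levels of 4.48, 4.66, 4.48 and 3.43 in STW5 blood, against 2.87, 2.92, 3.14 and 3.33 in sham blood, a change of 1.20 ± 0.36 (limma adjusted p = 0.219). STW5 array 4, lowest in neutrophil score, was also lowest in Il1b and only just above sham. Csf1, the growth factor of macrophages, was the third member apart, with levels of 0.38, 0.10, -0.09 and -0.52 in STW5 blood, against -1.48, -1.89, -2.26 and -1.51 in sham blood. The 3 members make 12% of the 25 tested, against 4.38% of all genes, while the list as a whole had 14 members above and 11 below the median of all genes and a relative median of 0.13. This relative median was -0.07 with the neutrophil score as a covariate and close to 0 without sham array 3.

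Among immediate early genes, which respond to stimuli without new protein synthesis, 4 of 28 (14.3%, against 4.38% of all genes) were above sham on all arrays and none below (against 3.25%). Jun, a subunit of the AP-1 transcription factor, averaged 0.41 ± 0.29 in STW5 blood and -1.18 ± 0.31 in sham blood (SD, n = 4 each), a change of 1.60 ± 0.48 (SE, limma adjusted p = 0.219). Gadd45b, a stress sensor, had levels of 1.57, 1.42, 2.23 and 1.59 in STW5 blood, against 0.90, 0.55, 0.94 and 0.84 in sham blood, a change of 0.90 ± 0.28 (limma adjusted p = 0.236). Junb, another AP-1 subunit, and Ier5, a stress response gene, were at 0.88 and 0.56. Over the list, 17 members lay above and 11 below the median of all genes. The relative median was 0.14 over all arrays, 0.38 without STW5 array 4 and 0.05 without STW5 array 3.

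Of 41 interferon-stimulated genes 26 lay above the median of all genes and 15 below it, with a relative median of 0.21, and 3 (7.32%, against 4.38% of all genes) were above sham on all arrays. These were Oasl2 of the oligoadenylate synthetase family, Stat2, a transcription factor of type I interferon signalling, and Dtx3l, a ubiquitin ligase, at 1.12, 0.66 and 0.71. Ifit3, an antiviral effector, had levels of 3.64, 2.55, 2.86 and 1.09 in STW5 blood, against 1.22, 1.87, 0.86 and 0.94 in sham blood, and Ifih1, a sensor of viral RNA, was not above background on any sham array and at least 1.91-fold higher in STW5 blood. The list scores were 0.91, -0.04, 0.55 and -0.43 on the STW5 arrays, against 0.01, -0.12, -0.20 and 0.04 on the sham arrays, so the STW5 animals were spread to both sides of sham. Without STW5 array 1 the relative median was 0.03 and without STW5 array 4 it was 0.42.

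Glucocorticoid-induced genes did not move together, with 12 of 22 above and 10 below the median of all genes and a relative median of 0.01. Tsc22d1 had levels of 6.16, 5.29, 4.34 and 6.20 in STW5 blood, against 4.04, 3.79, 4.34 and 4.39 in sham blood. Its change was 1.36 on this brightest probe and 0.68 ± 0.47 (SE) on another. Nr3c1, the glucocorticoid receptor, was not above background on any sham array and at least 1.2-fold higher in STW5 blood. Toll-like receptor and inflammasome genes had 12 of 25 members above and 13 below the median of all genes, a relative median of -0.06 and no member apart. Nlrp3, the sensor of the inflammasome, had levels of -1.47, -1.35, -1.52 and -2.60 in STW5 blood, against -3.56, -2.89, -2.96 and -2.55 in sham blood, where STW5 array 4 alone lay among the sham values. For eicosanoid genes 13 of 20 lay above the median of all genes, with a relative median of 0.27. It was 0.12 without STW5 array 1, 0.09 with normexp background correction and -0.00 with the neutrophil score as a covariate. Pla2g7, the lipase that inactivates platelet-activating factor, had levels of 3.61, 3.91, 3.60 and 2.63 in STW5 blood, against 1.85, 2.30, 1.76 and 2.12 in sham blood, a change of 1.43 ± 0.42 (SE, limma adjusted p = 0.201).

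Of the antioxidant genes governed by NRF2 and the thioredoxin system, 16 of 36 lay above the median of all genes and 20 below it. The 2 members of smallest p belong to glutathione metabolism and differed in opposite directions. Gsr, which regenerates reduced glutathione, had levels of 0.87, -0.21, -0.01 and 0.35 in STW5 blood, against -1.65, -1.51, -1.04 and -0.58 in sham blood, a change of 1.45 ± 0.37 (SE, limma adjusted p = 0.152). Gss, which completes glutathione synthesis, had levels of -2.60, -2.13, -2.02 and -2.48 in STW5 blood, against -1.78, -1.72, -1.87 and -1.74 in sham blood, a change of -0.53 ± 0.22 (limma adjusted p = 0.343). Each was apart from sham on all arrays, which makes 2.78% of the list in each direction, below the 4.38% higher and 3.25% lower of all genes. Iron genes had 11 of 17 members above the median of all genes. Slc40a1, the iron exporter ferroportin, was above sham on all arrays, as were 4.38% of all genes. Its levels were 4.17, 3.33, 2.85 and 3.52 in STW5 blood, against 2.63, 2.10, 2.67 and 2.58 in sham blood. Steap4, a metalloreductase, averaged 2.03 ± 0.80 in STW5 blood and 0.75 ± 0.26 in sham blood. Its change was 1.28 on this brightest probe and 1.67 and 0.42 on its other probes. Genes of the aryl hydrocarbon receptor and of drug metabolism, which plant compounds can induce, had 9 of 16 members above the median of all genes and a relative median of 0.03. Of this list 11 of 27 genes on the array were above background on none of the 8 arrays, and Cyp4f18, a cytochrome of leukocytes, averaged -0.81 ± 0.57 in STW5 blood and -1.53 ± 0.28 in sham blood. Sult1a1 of the same list was above sham on all arrays, as were 4.38% of all genes, with a change of 0.83 ± 0.95 (SE). It was dim, above background on 1 STW5 array and on no sham array.

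Of 32 glycolysis and hypoxia genes 21 lay above the median of all genes, with a relative median of 0.19, and 4 (12.5%, against 4.38%) were above sham on all arrays. Pkm, the pyruvate kinase of leukocytes, had levels of 6.43, 5.79, 5.77 and 5.87 in STW5 blood, against 4.86, 4.96, 5.01 and 5.53 in sham blood, a change of 0.87 ± 0.29 (SE, limma adjusted p = 0.252), and its other probes gave 0.31 and 0.38. Gapdh averaged 7.16 ± 0.73 in STW5 blood and 6.39 ± 0.36 in sham blood. Vegfa, a hypoxia-induced growth factor, was above background on all STW5 arrays and on no sham array and was at least 2.69-fold higher in STW5 blood, Hk2, a hexokinase, was at least 1.16-fold higher, and Eno1, an enolase, was at 0.25. The relative median of the list was 0.09 without STW5 array 4, 0.05 with normexp background correction and 0.01 with the neutrophil score as a covariate.

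Of 54 oxidative phosphorylation genes 47 lay below the median of all genes and 7 above it, and 4 (7.41%, against 3.25%) were below sham on all arrays. Atp5f1c, the gamma subunit of ATP synthase, had levels of 0.75, 0.48, 0.96 and 0.50 in STW5 blood, against 1.78, 1.86, 1.49 and 1.54 in sham blood. The groups were wide apart, with a change of -0.99 ± 0.24 (SE, limma adjusted p = 0.152). Timmdc1, described above, is an assembly factor and was another of the 4. The list was written with earlier results of these data known, so the share that counts Timmdc1 is no independent support. Ndufv2, a subunit of complex I, and Cycs, cytochrome c, were at -0.56 and -0.61. The relative median of the list was -0.32, and it stayed between -0.41 and -0.25 when any 1 of the 8 arrays was left out and was -0.44 with the neutrophil score as a covariate. The scores were 0.11, 0.11, -0.18 and -0.34 on the STW5 arrays, against 0.35, 0.22, 0.11 and 0.23 on the sham arrays.

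**Figure D3:**
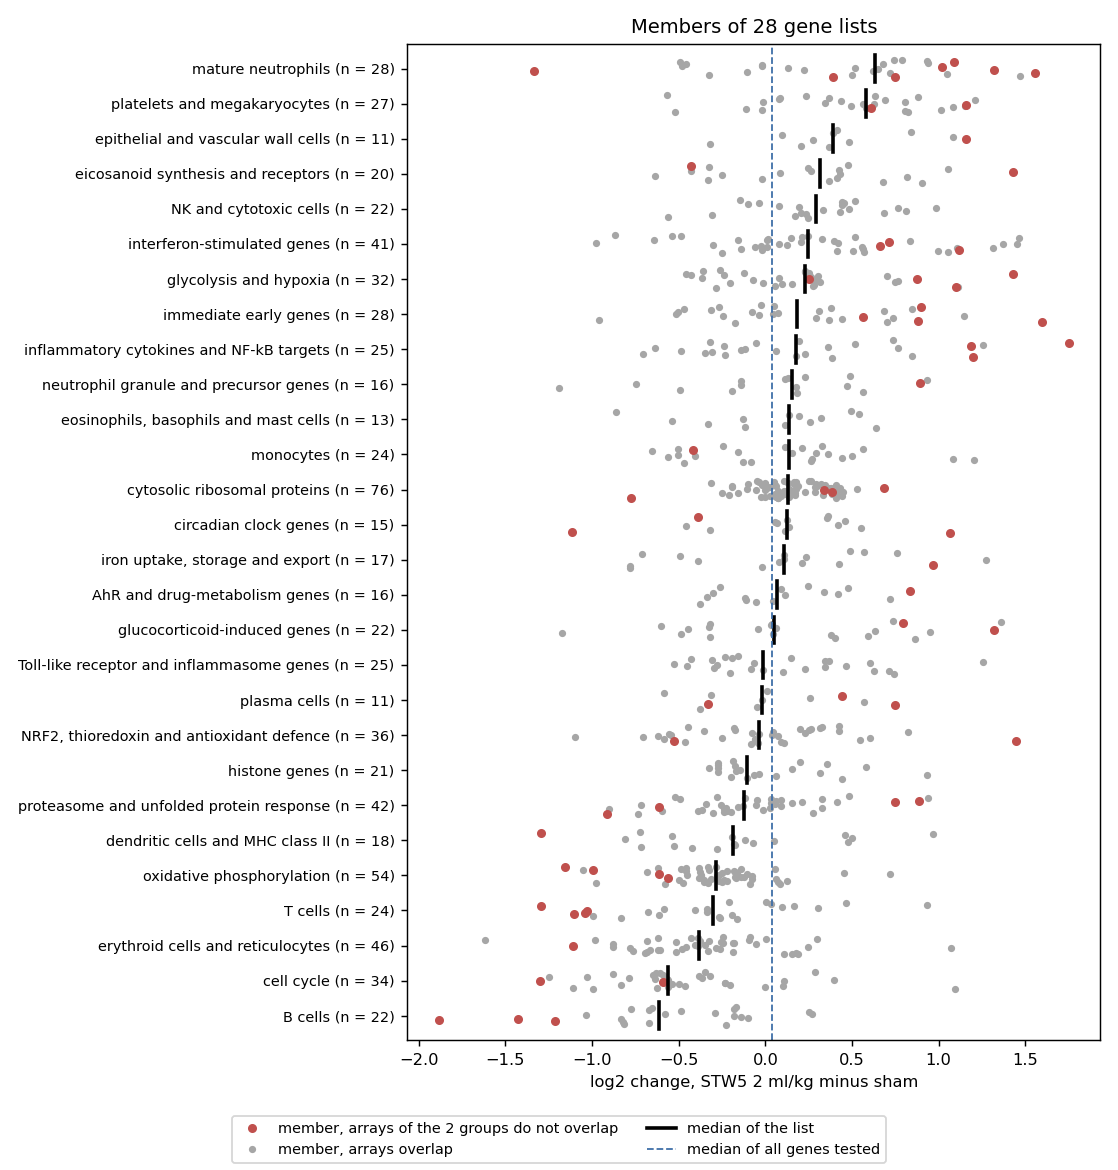
Log2 change between STW5 2 ml/kg and sham of each tested member of 28 gene lists (grey where the arrays of the groups overlap, red where they do not), with the list median as a black bar and the median of all genes, 0.04, as a dashed line. B cell, cell cycle, erythroid, T cell and oxidative phosphorylation lists lie to the left, at medians of -0.62 to -0.28, and mature neutrophil and platelet lists to the right, at 0.63 and 0.58.

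Genes of the cytosolic ribosome were detected on all 8 arrays for all 76 members, and 54 lay above and 22 below the median of all genes, with a relative median of 0.09, and of -0.02 with normexp background correction. Rpl5, a large subunit protein, went against most of the list, with levels of 4.64, 4.37, 4.61 and 4.44 in STW5 blood, against 4.85, 5.88, 5.18 and 5.26 in sham blood, and Rpsa, of the small subunit, was higher by 0.68 ± 0.27 on its brightest probe and by 0.00 on another. Of 34 cell cycle genes 29 lay below the median of all genes and 5 above it. Mcm6, a subunit of the replicative helicase, had levels of -3.36, -4.54, -2.78 and -3.01 in STW5 blood, against -1.68, -1.91, -2.44 and -2.45 in sham blood, a change of -1.30 ± 0.40 (SE, limma adjusted p = 0.22), and Aurkb, a mitotic kinase, was not above background on any STW5 array and at least 1.82-fold lower in STW5 blood. Sham array 1 had a cell cycle score of 1.15, far above the -0.12 to 0.25 of the other sham arrays, and without it the relative median was -0.31 in place of -0.60, with normexp background correction -0.21.

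For the proteasome and the unfolded protein response 28 of 42 members lay below the median of all genes, and 2 were apart in each direction (4.76%, against 4.38% of all genes higher and 3.25% lower), close to the shares of all genes. Psma1, a subunit of the proteasome core, had levels of 0.96, 0.77, 1.49 and 1.13 in STW5 blood, against 2.02, 2.26, 1.97 and 1.75 in sham blood, a change of -0.91 ± 0.25 (SE, limma adjusted p = 0.174), and Psmc4, an ATPase of its cap, was at -0.61. Ddit3 and Atf6, transcription factors of the unfolded protein response, were above sham on all arrays at 0.75 and 0.89. Histone genes had 13 of 21 members below the median of all genes and none apart.

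The core clock genes Clock and Bmal1, whose proteins pair to drive circadian transcription, lay in opposite directions. Clock had levels of -3.55, -3.56, -2.89 and -3.30 in STW5 blood, against -4.13, -3.98, -4.59 and -4.86 in sham blood (limma adjusted p = 0.152). It was above background on 1 STW5 array and no sham array. Its computed fold of 1.38 higher in STW5 blood is therefore no firm minimum, since most of its STW5 levels were themselves not above background. Bmal1 had levels of -3.88, -4.06, -2.83 and -3.06 in STW5 blood, against -2.04, -2.38, -2.22 and -2.73 in sham blood, a change of -1.11 ± 0.33 (limma adjusted p = 0.211). Both were dim, Bmal1 being above background on 2 STW5 and 3 sham arrays. No hour of blood sampling was given. The remaining clock genes had Csnk1d, a clock kinase, below sham on all arrays at -0.39 and 12 members that overlapped sham. Over all genes 4.38% were above and 3.25% below sham on all arrays.

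**Figure D4:**
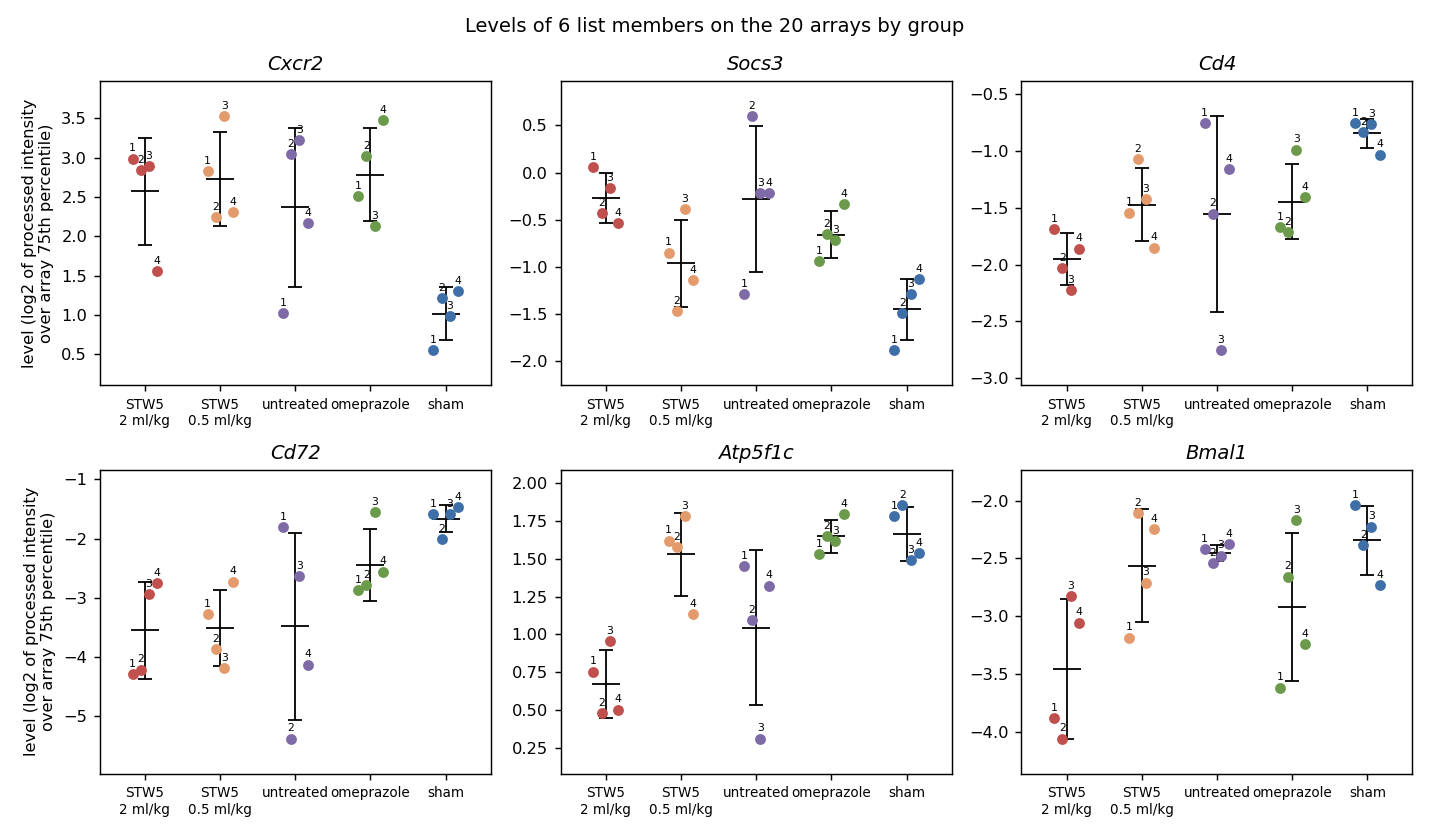
Levels of 6 list members on all 20 arrays, as log2 of the processed intensity over the array's 75th percentile, with points for arrays, replicate numbers, and bars for mean and SD. Cxcr2 and Socs3 are higher and Cd4, Cd72, Atp5f1c and Bmal1 lower on the STW5 2 ml/kg arrays at the left than on the sham arrays at the right, and the middle columns show STW5 0.5 ml/kg, untreated and omeprazole arrays.

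The other groups place these values among the operated animals. The comparisons with sham share the sham arrays, so their values are set side by side only. For mature neutrophils the relative list median was 0.59 in STW5 2 ml/kg, 1.43 in STW5 0.5 ml/kg and 1.17 in untreated blood against sham, and for B cells it was -0.66, -0.59 and -0.53 in the same order. For erythroid genes it was -0.42, -0.68 and -0.95, for platelet genes 0.54, 0.37 and 0.71, and for oxidative phosphorylation -0.32, -0.09 and -0.19. Cxcr2 averaged 2.57 in STW5 2 ml/kg, 2.73 in STW5 0.5 ml/kg, 2.37 in untreated, 2.78 in omeprazole and 1.01 in sham blood, so that the mean of every operated group lay above that of sham, though untreated array 1 lay within the sham range. Cd72 averaged -3.55, -3.51, -3.48, -2.44 and -1.66 in the same order, again with sham at one end. Shoc2 averaged 1.78 in STW5 2 ml/kg, 0.64 in STW5 0.5 ml/kg, 1.17 in untreated, 0.19 in omeprazole and 0.40 in sham blood, Atp5f1c averaged 0.67, 1.53, 1.05, 1.65 and 1.67, and Bmal1 -3.46, -2.56, -2.45, -2.92 and -2.34. In these 3 genes the STW5 2 ml/kg mean stood at one end of the 5 groups. They were named, like Cxcr2 and Cd72, for a small p between STW5 2 ml/kg and sham. That choice favours a mean of either group at one end, so the order of the groups is descriptive only. The omeprazole means also come from a slide that held no other group, so slide and drug are not separable in them.

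Against untreated esophagitis, STW5 2 ml/kg gave no gene past the threshold in limma, with a smallest adjusted p of 0.0685 and 3583 genes (23.5%) at an unadjusted p below 0.05. All STW5 arrays lay above all untreated arrays for 509 genes (3.34%) and below them for 118 (0.775%). This balance turned with the scaling: under spike-in scaling the median of all genes was -0.87, and 7 genes passed higher and 3647 lower. Against STW5 0.5 ml/kg, which lay on the same slide, no gene passed either, with a smallest adjusted p of 0.0540 and 4052 genes (26.6%) at an unadjusted p below 0.05. All STW5 2 ml/kg arrays lay above all STW5 0.5 ml/kg arrays for 1120 genes (7.35%) and below them for 583 (3.83%). Here too the balance turned: under spike-in scaling the median of all genes was -1.09 and 7705 genes passed lower and 0 higher, while without a filter on dim probes 5111 passed higher and 260 lower. Against untreated the highest count of any setting was 4523, without untreated arrays 1 and 2. The groups also differed in signal. The 75th percentile was 152 to 308 on the STW5 0.5 ml/kg arrays and 124 to 266 on the untreated arrays, against 71.3 to 163 on the STW5 2 ml/kg arrays. With the array's own signal as a covariate, 2245 genes had an unadjusted limma p below 0.05 against STW5 0.5 ml/kg. Against untreated there were 896, and no gene passed in either comparison. If the arrays titled 0.5 ml/kg are instead taken as the 2 ml/kg group, as the design text and the value table have it, no gene passed against sham in limma either, and 1765 had an unadjusted p below 0.05. The relative medians were then 1.43 for mature neutrophils, -0.15 for T cells, -0.59 for B cells, -0.68 for erythroid genes, 0.37 for platelet genes and -0.09 for oxidative phosphorylation, and among the 10 leading genes Clec2g, Brinp2 and Fam118b had the opposite sign.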

How the data were processed

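Blood RNA of 20 rats was hybridised to 1-colour Agilent arrays, 1 array per animal. Per the file headers, the deposited intensity of a spot is Agilent Feature Extraction 10.7.3.1's processed signal, background-subtracted and spatially detrended, with low values replaced by a surrogate and no scaling between arrays. The authors' deposited value table holds, as found by setting it against the scanner files, a ratio per spot, the processed signal over the array's median, and 8 of its 20 columns follow the array of the other STW5 dose. It was used as an alternative only.

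From 62976 spots per array, the 58717 non-control spots (none saturated) were averaged over 30367 probes without outlier-flagged spots, on the log2 scale, and each array's 75th percentile was subtracted. A probe was kept when 4 or more arrays had it well above background (17236 probes), and the brightest represented each of 15231 genes. Of the probes 21343 took a symbol from the RefSeq gene table, and the others kept the file's name. The 20 arrays were fitted together, with a mean for each of 5 groups, in limma 3.58.1 (R 4.3.3, data.table version 1.17.8, 15 residual degrees of freedom, prior 4.22), with two-sided p values adjusted by Benjamini-Hochberg over all genes. Adjusted p values in the text are limma's. The number of arrays limits the precision. Where no array of a group was well above background, a fold is a bound, written "at least". The brighter group's mean was then divided by the dimmer group's after each dim array had been raised to its weakest signal that counted as well above background, if lower. Such a fold compares measured means and carries no sampling error. It is no firm minimum where arrays of the brighter group were themselves not well above background. Probes that share at least 30 bases at 80% identity with a brighter probe of another gene were found with blastn 2.17.0.

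The members and the 28 gene lists (879 symbols, 736 tested) were chosen with earlier results of these data known. The lists were written from general knowledge, and they carry no test. Genes were named by a rule: past the threshold, or, since none passed, the 5 smallest p in each direction with a symbol, plus the 2 smallest p per list. A list member chosen by this rule is not reported here, though it counts in its list. The test was checked on simulated data. Alternatives changed the scaling, background, filter, probe choice, arrays, weights, covariates and dose assignment.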

Additional observations from a re-analysis of the deposited data

Results flagged for a closer look

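Single arrays stood apart from the other 3 of their group in 13 of 182 sets of 4 values examined (63 named genes and 28 lists in each group), by Dixon's test of the gap to the nearest array at the 95% level. Chance alone gives about 1 in 20. On the STW5 2 ml/kg arrays, array 4 was low for Cxcr2 at 1.56, for Il1b at 3.43 and for Nlrp3 at -2.60, array 3 was low for Shoc2 at 1.54 and high for Fam118b at -3.64, and array 1 was high for Pkm at 6.43. On the sham arrays, array 2 was low for Tbx21 at 6.99, for Slc40a1 at 2.10 and for the clock list score at -0.18. Array 3 of the sham group was low for Hdac6 at -2.95 and high for Derl3 at -0.70, array 1 was high for Ccl5 at 6.72, and array 4 was high for Tal1 at 1.10. The 3 low values of STW5 array 4 are in genes that neutrophils express, and that array had the lowest neutrophil score of the STW5 group, -1.09, whose part in them was not tested.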

How the results depend on the processing

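Of 24 alternatives for STW5 2 ml/kg minus sham, 20 gave 0 genes, with 901 to 3355 at an unadjusted p below 0.05. The exceptions were array weights (670), signal as a covariate (125), no untreated arrays 1 and 2 (51) and leaving out single arrays of either group, which gave 0 to 2, the 2 without STW5 array 1. Against STW5 0.5 ml/kg, 0 became 7705 with spike-in scaling, 79 with median scaling and with the deposited value table, 3757 with normexp, 5371 without a filter, 116 with the filter on the 8 arrays, 1291 with array weights, 554 without untreated arrays 1 and 2, and 0 to 806 when single arrays were left out, the 806 without STW5 array 3. Against untreated it became 3654 with spike-in scaling, 2 with median scaling, 707 with array weights, 4523 without untreated arrays 1 and 2, and 0 to 1038 with single arrays left out, the 1038 again without STW5 array 3.

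Replicate numbers did not pair the animals: deviations of same-numbered STW5 2 ml/kg and sham arrays correlated at -0.28 to 0.10, and no array correlated best with its own number. With the replicate number as a block there were 0 calls against sham, 529 against STW5 0.5 ml/kg and 515 against untreated.

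Signs turned for 23 named values. Under spike-in scaling these were Abcc1 (-0.033), Derl3 (-0.0073) and H1f4 (-0.0066), and with the mean of all probes Derl3 (-0.43). With the arrays titled 0.5 ml/kg as 2 ml/kg they were Abcc1 (-0.25), Brinp2 (-0.14), Clec2g (-0.14), Cx3cr1 (-0.29), Fam118b (0.096), H1f4 (-0.081), Il13 (-0.41), Rpsa (-0.14) and Tbx21 (-0.73). With the deposited value table they were Abcc1 (-0.13), Brinp2 (-0.014), Clec2g (-0.015), Cx3cr1 (-0.16), Fam118b (0.22), Il13 (-0.28), Irak3 (0.11), Psma1 (0.066), Rpsa (-0.012) and Tbx21 (-0.61). Spike-in scaling shifts all genes of a comparison alike, and the median of all genes was -0.41 under it. The mean of all probes of Derl3 includes its dimmer probe, at -1.31. The last 2 settings use other arrays. The causes of these shifts were not tested further. A scan block could not be fitted, since scan and slide coincide. Dim probes limit Clock, Bmal1 and every gene given as a bound, among them Hdac6, Agap3 and Fam118b. All values against sham are limited by 4 animals a group, by slide coinciding with treatment and by the conflicting dose labels.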
